A study of Mus musculus with 4 samples.

Results

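The EGF receptor family consists of 4 receptor tyrosine kinase genes, Egfr, Erbb2, Erbb3 and Erbb4, and is described here together with 6 genes for its ligands, Areg, Ereg, Btc, Hbegf, Tgfa and Nrg1. These 10 genes were chosen by name, without use of a measured value. A gene was represented by the probe set that the platform annotation assigns to that gene alone, and by the brightest such probe set where there were several. Of the 10 genes, 9 had such a probe set, among 22180 genes on the array. No probe set carries the name Areg in the annotation used here, so this ligand was not analysed.

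Epithelial cells of the mammary gland were taken from congenic FVB/NJ mice aged 4 weeks and were compared between 2 samples from MMTV-Cre mice and 2 samples from wild-type littermates, with 1 array per sample. MMTV-Cre mice carry a transgene in which the promoter of mouse mammary tumour virus drives Cre recombinase, a promoter active in mammary epithelium and also in some other tissues. Both groups received the same isolation of epithelial aggregates from inguinal glands, and no floxed allele is named in the labels for either group. The labels call the samples biological replicates and do not say how many mice went into each. The p-values therefore set a group difference against the spread between these samples, which may differ from that between single mice. For each gene that spread was drawn toward the spread of all genes tested. The transcript of Cre itself was not analysed here.

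The receptors span the cell membrane and pair with each other when a ligand binds, after which the paired kinases switch on the RAS-ERK and PI3K-AKT cascades. Erbb2 has no known ligand of its own and acts as a partner of the others, while Erbb3 has a weak kinase and signals mainly through its partners. The ligands are made as membrane proteins and are released by metalloproteinases such as ADAM17. Areg, Ereg, Btc, Hbegf and Tgfa bind Egfr, and Btc, Ereg and Hbegf also bind Erbb4, while Nrg1 binds Erbb3 and Erbb4. In the pubertal mouse gland, amphiregulin from oestrogen-responsive luminal cells is known to drive duct outgrowth through Egfr in the stroma.

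In these arrays no measured family member passed the test of a difference between MMTV-Cre and wild-type cells. By limma with Benjamini-Hochberg adjustment over all genes tested, 0 of the 8 members above the filter on dim probe sets passed an adjusted p of 0.05, where 0 of 11668 genes (0%) passed. At an unadjusted p under 0.05 the count was also 0 of 8, against 504 of 11668 genes (4.32%). The 8 members differed by between −0.20 (Nrg1) and 0.27 (Erbb2) on the log2 scale, with 3 above 0 and 5 below, a median of −0.06, and a median of −0.0039 over all genes tested. The arrays of the 2 groups did not overlap for Erbb2, higher in MMTV-Cre, and for Hbegf, lower in MMTV-Cre. That is 2 of 8 members, where 33.1% of all genes tested had separate groups. With 2 arrays per group a two-sided exact permutation test cannot give a p below 0.333, and precision is limited by how few arrays there are.

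Some arrays stood apart in their markers of cell types. The level of T and B lymphocyte markers, as the mean over the 10 tested of 14 listed, was 3.04 and 3.15 in MMTV-Cre and 5.56 and 3.17 in wild-type, the high value being that of wild-type replicate 1, although the tissue is labelled as free of lymph node. Of the 10 markers, 4 passed the filter only through that array. Over all 13 markers with a probe set, tested or not, the mean was 2.85 and 2.95 in MMTV-Cre and 5.01 and 2.91 in wild-type. Fibroblast markers, all 12 tested, averaged 6.26 and 6.70 in MMTV-Cre and 6.23 and 6.35 in wild-type. General epithelial markers, all 12 tested, averaged 7.99 and 7.98 in MMTV-Cre and 7.90 and 7.97 in wild-type, with Epcam between 8.52 and 8.67 in the 4 arrays. Markers of stromal cells were thus measured beside epithelial ones in every array. In such mixed samples, fewer cells of a type and less RNA per cell cannot be told apart.

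The promoters of Egfr and Erbb2 are printed because these receptors had the widest spread within MMTV-Cre and the largest difference between groups. Each window holds 250 bases before the RefSeq start and 50 after it, in the reference strain of GRCm38.p6 rather than FVB/NJ. The Egfr window is chr11:16751953-16752252, plus strand, and the Erbb2 window is chr11:98412234-98412533, plus strand. Capitals mark matches, on either strand, to 3 motifs of core promoters, which do not overlap here. They are the GC box, spelled GGGCGG, the TATA box, spelled TATAAA, and the CCAAT box, named by its own letters.
Egfr: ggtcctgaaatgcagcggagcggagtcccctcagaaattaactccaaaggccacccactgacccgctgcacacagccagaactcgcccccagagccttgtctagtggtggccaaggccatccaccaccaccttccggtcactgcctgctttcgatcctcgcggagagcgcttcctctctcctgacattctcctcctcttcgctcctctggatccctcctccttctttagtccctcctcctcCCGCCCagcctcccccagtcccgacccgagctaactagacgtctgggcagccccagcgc
Erbb2: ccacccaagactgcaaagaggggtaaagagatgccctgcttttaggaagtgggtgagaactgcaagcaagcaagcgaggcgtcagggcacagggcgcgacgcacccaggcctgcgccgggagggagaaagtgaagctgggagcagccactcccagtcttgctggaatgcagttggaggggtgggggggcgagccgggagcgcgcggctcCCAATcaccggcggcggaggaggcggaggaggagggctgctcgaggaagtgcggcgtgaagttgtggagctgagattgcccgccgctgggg
The Egfr window holds 1 GC box, on the minus strand, and the Erbb2 window holds 1 CCAAT box on the plus strand. Neither holds the TATA box, which 13.6% of 32851 RefSeq windows of this length hold. A GC box is found in 35.7% of those windows and a CCAAT box in 37.4%. GC content was 62.3% for Egfr and 66.0% for Erbb2. The arrays hold no measurement of these sites, and a match of letters is a description only.

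Egfr, the receptor of EGF, amphiregulin and their relatives, had log2 levels of 6.34 and 7.01 in the 2 MMTV-Cre arrays and of 6.85 and 6.71 in the 2 wild-type arrays. The MMTV-Cre arrays were the lowest and the highest of all, with both wild-type arrays between them. The means were 6.68 ± 0.47 in MMTV-Cre and 6.78 ± 0.10 in wild-type (SD, n = 2 each), a log2 difference of −0.10 (95% interval −0.71 to 0.50, adjusted p = 0.995). On the linear scale this was 0.931-fold, with an interval from 0.611-fold to 1.42-fold. The distance of 0.66 between the MMTV-Cre arrays was matched or exceeded by 3.0% of the genes tested, for which the median distance was 0.15. The distance between the wild-type arrays was 0.14, equal to the median of the genes tested. The difference was 0.23 without MMTV-Cre replicate 1 and −0.43 without MMTV-Cre replicate 2, so its direction depended on which of the 2 was used.

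Erbb2, the receptor without a ligand of its own, measured 6.16 and 6.18 in MMTV-Cre, against 5.72 and 6.08 in wild-type. Both MMTV-Cre arrays lay above both wild-type arrays, and wild-type replicate 1 was the low one. The log2 difference was 0.27 (−0.13 to 0.67, adjusted p = 0.964), or 1.2-fold (0.914 to 1.59). The MMTV-Cre arrays lay 0.02 apart, closer than in 91.0% of the genes tested. The wild-type arrays lay 0.36 apart, a distance that 14.5% of the genes tested reached. Without wild-type replicate 1, where lymphocyte markers were high, the difference was 0.09, and without wild-type replicate 2 it was 0.45. The part of those markers in this difference was not tested. Grb7, which encodes an adaptor protein and lies beside Erbb2 on chromosome 11 with 1 protein-coding gene between them, measured 5.45 and 5.20 in MMTV-Cre, against 5.23 and 5.20 in wild-type. Grb7 was thus high in MMTV-Cre replicate 1 alone and was not low where Erbb2 was low.

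Erbb3, the neuregulin receptor that signals through its partners, measured 6.85 and 6.65 in MMTV-Cre, against 6.54 and 6.73 in wild-type. Its groups overlapped, and the log2 difference was 0.11 (−0.24 to 0.46, adjusted p = 0.990). Like Erbb2 it was lowest in wild-type replicate 1, without which the difference was 0.02. Among the genes tested 28.8% were lowest in that array.

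Erbb4, a receptor of neuregulins and of some EGF-like ligands, is known for its part in alveolar differentiation and milk production. Its probe set measured 2.29 and 2.32 in MMTV-Cre, against 2.31 and 2.31 in wild-type, below the 2.84 of the median probe set, and it was not among the genes tested. In the fit with no filter the log2 difference was −0.01 (−0.29 to 0.28). The 4 values lay within 0.03 of each other. Dim probe sets respond little to a change in transcript, and these values do not show that Erbb4 was equal in the groups.

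**Figure D1:**
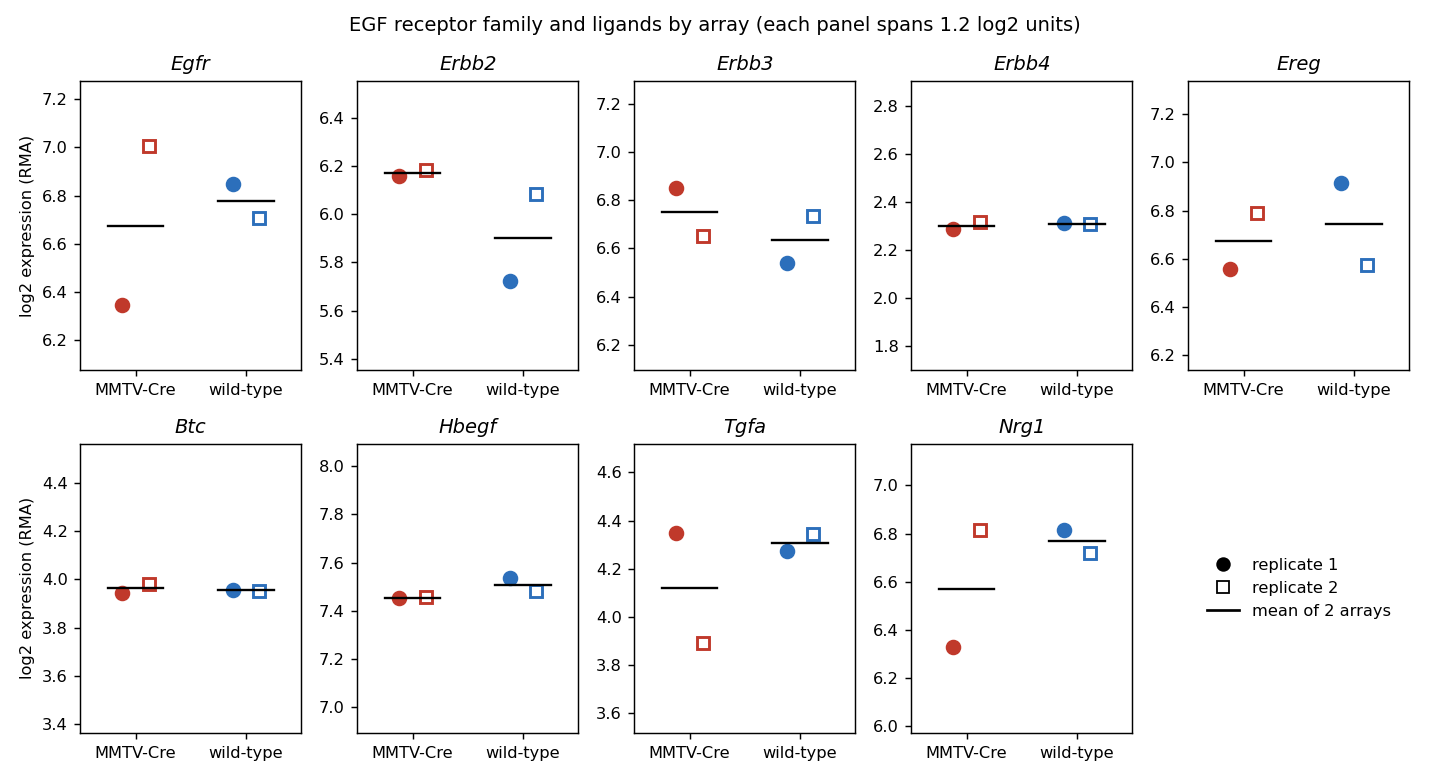
Log2 expression of the 9 measured members in each array, MMTV-Cre on the left and wild-type on the right of each panel, with replicate 1 as filled circles, replicate 2 as open squares and the mean of the 2 arrays as a line. Each vertical axis spans the same number of log2 units around that gene's values. Egfr and Nrg1 are low in MMTV-Cre replicate 1 (6.34 and 6.33), Tgfa is low in MMTV-Cre replicate 2 (3.89), Erbb2 is low in wild-type replicate 1 (5.72), and Erbb4, Btc and Hbegf lie almost level in the 4 arrays.

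Among the ligands, Nrg1, which encodes neuregulin, measured 6.33 and 6.81 in MMTV-Cre, against 6.82 and 6.72 in wild-type. MMTV-Cre replicate 1 was below the other 3 arrays, which lay close together. The log2 difference was −0.20 (−0.68 to 0.28, adjusted p = 0.979), and it was 0.046 without MMTV-Cre replicate 1 and −0.44 without MMTV-Cre replicate 2. The MMTV-Cre arrays lay 0.48 apart, a distance that 8.63% of the genes tested reached. Nrg1 has many transcripts from several promoters, which a single probe set does not separate.

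Tgfa, the gene of transforming growth factor alpha, an Egfr ligand, measured 4.35 and 3.89 in MMTV-Cre, against 4.28 and 4.34 in wild-type. Here MMTV-Cre replicate 2 was the low array. The log2 difference was −0.19 (−0.65 to 0.27, adjusted p = 0.979), and it was 0.038 without MMTV-Cre replicate 2 and −0.42 without MMTV-Cre replicate 1. The distance of 0.46 between the MMTV-Cre arrays was reached by 10.2% of the genes tested. Tgfa and Nrg1 had nearly the same group difference, but a different MMTV-Cre array carried each of them.

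Ereg encodes epiregulin, which binds Egfr and Erbb4. Its brighter probe set measured 6.56 and 6.79 in MMTV-Cre, against 6.92 and 6.58 in wild-type, with overlapping groups and a log2 difference of −0.07 (−0.50 to 0.36, adjusted p = 0.995). A dimmer probe set measured 5.66 and 5.93 in MMTV-Cre, against 5.94 and 5.56 in wild-type, with a difference of 0.05. Both probe sets were high in MMTV-Cre replicate 2 and wild-type replicate 1 and low in the other arrays. They therefore had like patterns over the arrays, with group differences of opposite sign close to 0.

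Hbegf, which encodes a heparin-binding ligand of Egfr and Erbb4, measured 7.45 and 7.46 in MMTV-Cre, against 7.53 and 7.48 in wild-type. Both MMTV-Cre arrays lay below both wild-type arrays, by a small amount. The log2 difference was −0.05 (−0.33 to 0.22, adjusted p = 0.995), or 0.964-fold (0.797 to 1.17). It ran from −0.08 to −0.03 when each array was left out in turn. Its 4 arrays spanned 0.08, and 96.3% of the genes tested spanned at least as much.

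Btc, the gene of betacellulin, measured 3.94 and 3.98 in MMTV-Cre, against 3.96 and 3.95 in wild-type. Both wild-type values lay between the MMTV-Cre values. The log2 difference was 0.01 (−0.26 to 0.28, adjusted p = 0.997), and the 4 arrays spanned 0.04, as much as or less than 99.5% of the genes tested. The closeness of the 4 values is narrower than the interval because limma draws each gene's variance toward that of all genes.

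**Figure D2:**
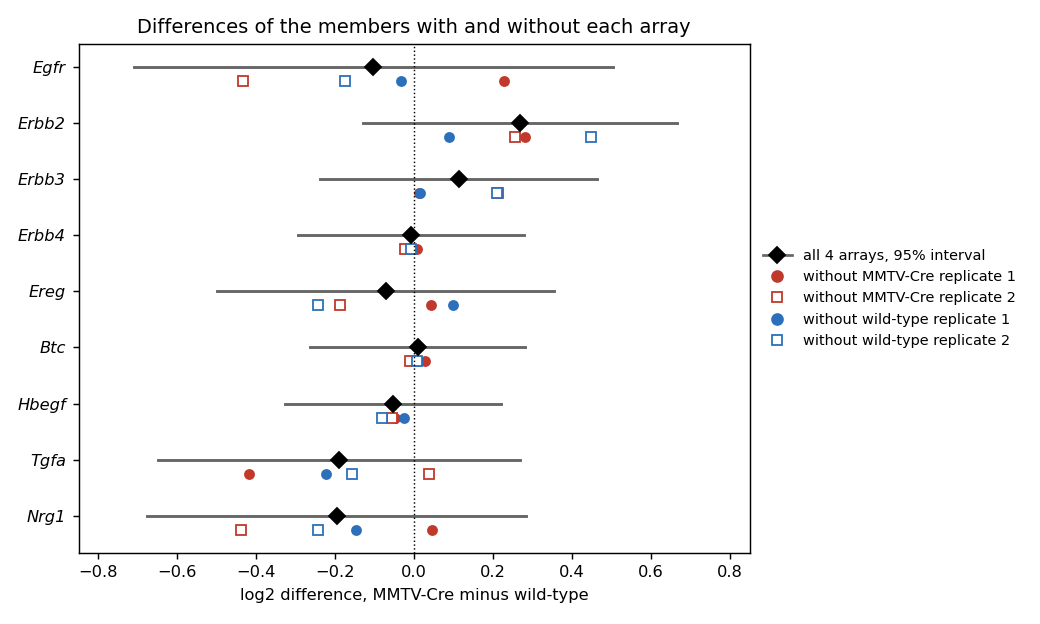
Log2 difference, MMTV-Cre minus wild-type, of each measured member with all 4 arrays (diamond, with its 95% interval) and after leaving out each array in turn (small symbols under each line, red for an MMTV-Cre array and blue for a wild-type array). Every interval includes 0, and for Egfr the small symbols run from −0.43 to 0.23, on both sides of 0. Erbb4 is from the fit with no filter on dim probe sets.

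Egfr and Nrg1 were lowest in MMTV-Cre replicate 1, as were Ereg, Btc and Hbegf by smaller amounts. That made 5 of the 8 tested members lowest in this array, against 30.2% of all genes tested. For Ereg (6.56 against 6.58), Btc (3.94 against 3.95) and Hbegf (7.45 against 7.46) the next lowest array was almost level. The dimmer Ereg probe set was lowest in wild-type replicate 2, at 5.56 against 5.66 in MMTV-Cre replicate 1. Relative to the mean over the 4 arrays, Egfr was placed at −0.38 and 0.28 in MMTV-Cre, against 0.12 and −0.02 in wild-type. Nrg1 was placed at −0.34 and 0.14 in MMTV-Cre, against 0.15 and 0.05 in wild-type on the same scale. The pair thus shared the low array. Egfr was highest in MMTV-Cre replicate 2, where Nrg1 was almost level with its highest array, wild-type replicate 1.

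Single markers of several cell types were low in MMTV-Cre replicate 1, while others of the same lists were not. The fibroblast receptor gene Pdgfra measured 4.34 and 5.92 in MMTV-Cre, against 5.44 and 5.05 in wild-type. The fibroblast list as a whole did not share this low array. Of its 12 genes 2 were lowest in MMTV-Cre replicate 1, where 30.2% of all genes tested were lowest. In wild-type replicate 1, 8 of 12 were lowest, and 11 of 12 were highest in MMTV-Cre replicate 2. The basal keratin gene Krt14 measured 7.27 and 8.07 in MMTV-Cre, against 8.02 and 7.97 in wild-type, and the basal transcription factor gene Trp63 measured 3.11 and 3.61 in MMTV-Cre, against 3.54 and 3.66 in wild-type.

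The basal list did not move as a whole. Of its 10 tested genes 4 were lowest in MMTV-Cre replicate 1 (Krt14, Krt17, Trp63 and Cdh3), and 6 were highest there, among them the contractile genes Acta2 at 8.46 and Myh11 at 7.54. The mean of the list was 6.15 and 6.20 in MMTV-Cre and 6.13 and 6.07 in wild-type. Of the luminal progenitor list 7 of 10 genes were lowest in MMTV-Cre replicate 1, with list means of 5.86 and 6.08 in MMTV-Cre and 6.08 and 6.12 in wild-type, and of the macrophage list 6 of 7, with means of 4.38 and 5.10 in MMTV-Cre and 4.78 and 4.73 in wild-type. Of the adipocyte list 4 of 7 tested genes were lowest there, with means of 4.37 and 4.70 in MMTV-Cre and 4.66 and 4.72 in wild-type. The part of these cell types in the levels of Egfr and Nrg1 was not tested.

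Erbb2 and Erbb3 were lowest in wild-type replicate 1. In the same array all 13 lymphocyte markers with a probe set were highest, 7 of 10 endothelial markers were lowest, with list means of 5.24 and 5.56 in MMTV-Cre and 5.13 and 5.60 in wild-type, and 8 of 12 fibroblast markers were lowest. Of the general epithelial markers 4 of 12 were lowest there. The part of these cell types in the levels of Erbb2 and Erbb3 was not tested.

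**Figure D3:**
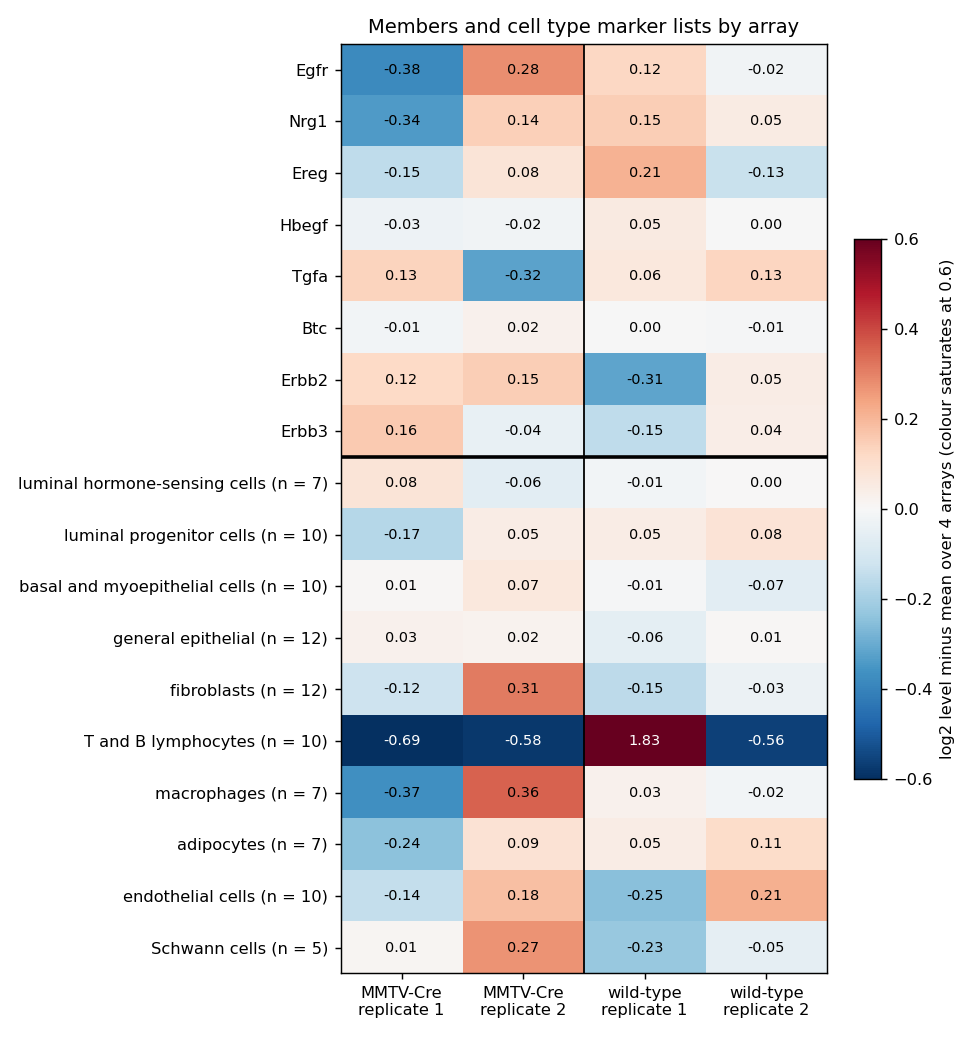
Log2 level minus the mean over the 4 arrays for the 8 tested members (upper rows) and for the mean of each cell type marker list (lower rows, n tested genes), by array, with MMTV-Cre on the left. Egfr (−0.38) and Nrg1 (−0.34) are low in MMTV-Cre replicate 1. Macrophage (−0.37), adipocyte (−0.24), luminal progenitor (−0.17), endothelial (−0.14) and fibroblast (−0.12) markers are also low there. Luminal hormone-sensing (0.08), general epithelial (0.03), basal (0.01) and Schwann cell (0.01) markers are not. Endothelial (−0.25) and fibroblast (−0.15) markers are lower still in wild-type replicate 1, where Egfr stands at 0.12 and Nrg1 at 0.15. Erbb2 (−0.31) is low in wild-type replicate 1, where lymphocyte markers stand at 1.83, beyond the colour scale.

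Of the family's other 5 ligand genes, Epgn and Nrg4 passed the filter and Egf, Nrg2 and Nrg3 did not. Epgn, the gene of the Egfr ligand epigen, measured 6.10 and 6.32 in MMTV-Cre, against 6.03 and 6.29 in wild-type, and its log2 difference was 0.05 (−0.34 to 0.43). In the mouse, Epgn, Ereg, Areg and Btc follow one another on chromosome 5 with 0 protein-coding genes between neighbours, per the RefSeq gene table. Epgn and Ereg, which are neighbours, were both high in MMTV-Cre replicate 2. They parted in wild-type replicate 1, where Epgn was lowest and Ereg highest. Nrg4, a ligand of Erbb4, measured 2.77 and 3.14 in MMTV-Cre, against 2.98 and 2.79 in wild-type, and its log2 difference was 0.07 (−0.35 to 0.50). Egf itself measured 1.94 and 1.71 in MMTV-Cre, against 1.83 and 1.96 in wild-type, below the median probe set.

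Genes that act around the receptors were taken from 6 lists of 85 genes in all, of which 76 had a probe set of their own and 72 were tested. In these lists 0 genes passed by limma in either direction. At an unadjusted p under 0.05 there was 1 higher and 1 lower, where 2.13% of all genes tested were higher and 2.19% lower. They were Egr1 and Adam19. Separate groups were seen in 17 genes higher and 8 lower of 72, where 16.7% of all genes tested were higher and 16.5% lower.

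The list of ligand processing held 11 tested genes, 4 with a difference above 0 and 7 below, with a median of −0.07. The sheddase gene Adam17 differed by 0.05 (−0.25 to 0.35) and Adam10, which releases EGF and betacellulin, by −0.07 (−0.35 to 0.21). Rhbdf1 and Rhbdf2, which encode the iRhom proteins that carry ADAM17 to the cell surface, differed by 0.11 (−0.17 to 0.39) and −0.09 (−0.39 to 0.21). Adam19, a metalloproteinase gene known to process neuregulin in cultured cells, was named after its values were seen. The brighter of its 2 probe sets measured 2.87 and 3.54 in MMTV-Cre, against 4.00 and 3.84 in wild-type. Both MMTV-Cre arrays lay below both wild-type arrays, and the value of 2.87 was close to the dim filter of 2.84. The dimmer probe set is not described here. The log2 difference was −0.72 (−1.33 to −0.11, adjusted p = 0.964), so it did not pass, and MMTV-Cre replicate 1 was again the low array.

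The adaptors and the RAS-ERK cascade held 14 tested genes of 19, 3 with a difference above 0 and 11 below, with a median of −0.07. The adaptor gene Grb2, which links receptors to RAS activation, measured 5.72 and 5.66 in MMTV-Cre, against 5.96 and 5.77 in wild-type, and its log2 difference was −0.17 (−0.49 to 0.14). Shc1, another adaptor of the receptors, differed by 0.03 (−0.25 to 0.31) and Gab1, a docking protein gene, by −0.05 (−0.42 to 0.32). Of the PI3K-AKT branch 9 of 12 genes were tested, 5 above 0 and 4 below, with a median of 0.05. Pik3r3, a regulatory subunit gene, measured 4.67 and 4.63 in MMTV-Cre, against 4.40 and 4.47 in wild-type, and its log2 difference was 0.22 (−0.06 to 0.50). The kinase gene Akt1 differed by 0.18 (−0.10 to 0.46), with both MMTV-Cre arrays above both wild-type arrays, and the catalytic subunit gene Pik3ca by −0.04 (−0.31 to 0.23).

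Genes that damp the receptors or the ERK cascade gave 15 differences above 0 and 4 below among 19 tested of 20, with a median of 0.08, where 49.0% of all genes tested lay above 0. Groups were separate for 7 of the 19, all higher in MMTV-Cre, where 16.7% of all genes tested were separate and higher. Errfi1, whose protein binds and inhibits the kinases of the family, measured 7.83 and 8.06 in MMTV-Cre, against 7.81 and 7.83 in wild-type, and its log2 difference was 0.13 (−0.20 to 0.46). Lrig1, a membrane protein gene that promotes receptor degradation, measured 5.48 and 5.91 in MMTV-Cre, against 5.43 and 5.54 in wild-type, and its log2 difference was 0.21 (−0.24 to 0.65). Spry2, a feedback inhibitor of the cascade, measured 6.69 and 7.15 in MMTV-Cre, against 6.49 and 6.74 in wild-type, and its log2 difference was 0.30 (−0.20 to 0.81).

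In these 3 genes MMTV-Cre replicate 2 was the high array, as in 11 of the 19, where 27.6% of all genes tested were highest in it. Fibroblast markers were also highest there, 11 of 12, and their part in these levels was not tested. Without MMTV-Cre replicate 2 the list's median was 0.04, and without MMTV-Cre replicate 1 it was 0.16. The ubiquitin ligase gene Cbl, whose product tags Egfr for degradation, differed by −0.18 (−0.52 to 0.16), and Rnf41, which encodes a ligase for Erbb3, by 0.08 (−0.28 to 0.45). Dusp6, an ERK phosphatase gene, had a brighter probe set that differed by 0.08 (−0.21 to 0.36) and a dimmer one that differed by 0.26.

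Genes that ERK signalling is known to induce gave 15 differences above 0 and 2 below among 17 tested of 18, with a median of 0.18, where 49.0% of all genes tested lay above 0. Groups were separate for 7 of the 17, all higher in MMTV-Cre, where 16.7% of all genes tested were separate and higher. Fibroblast markers lay above 0 in 11 of 12 genes, with a median of 0.16, and Schwann cell markers in all 5 tested of 10, with a median of 0.31. Egr2 belongs to the Schwann cell list and to the ERK-induced list, and the part of these cell types in the ERK-induced list was not tested. This list shares its immediate early genes with a stress response list whose levels in these arrays were known when it was chosen, so it is not independent evidence. Egr1, an immediate early transcription factor gene, measured 8.78 and 8.53 in MMTV-Cre, against 8.34 and 8.08 in wild-type. Its log2 difference was 0.44 (0.05 to 0.84, adjusted p = 0.964), and it did not pass. Fos differed by 0.18 (−0.28 to 0.64), and its groups overlapped. Of the other targets named by role, Myc differed by −0.02 (−0.36 to 0.31), the cyclin gene Ccnd1 by −0.06 (−0.44 to 0.32) and Phlda1 by 0.07 (−0.37 to 0.52). Etv5, a transcription factor gene, had a brighter probe set that differed by 0.11 (−0.33 to 0.56) and a dimmer one that differed by 0.29.

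**Figure D4:**
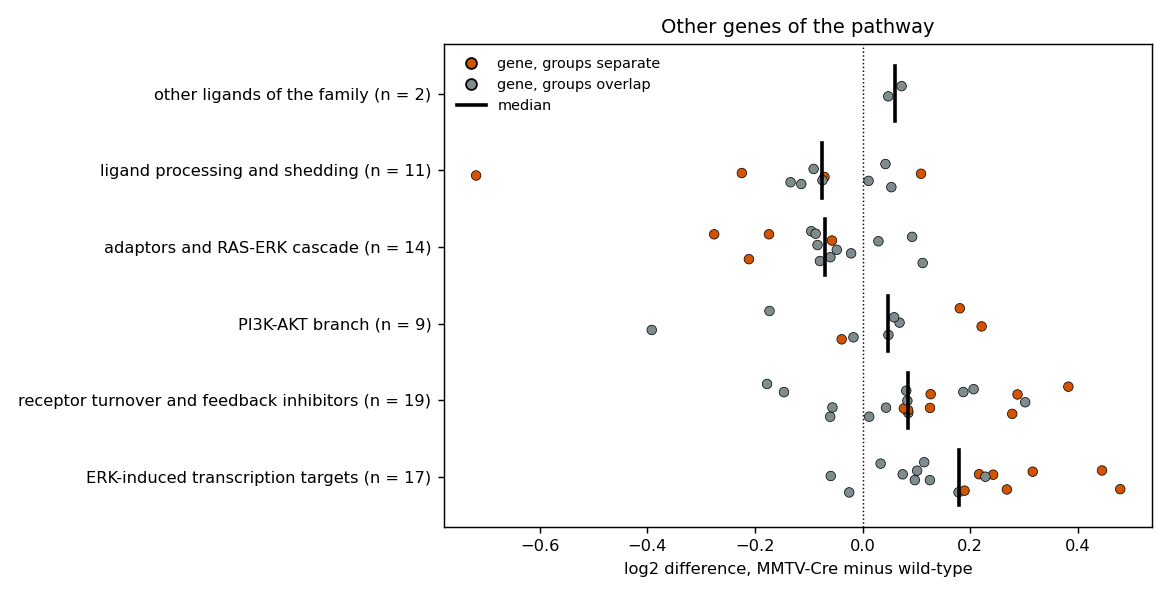
Log2 difference, MMTV-Cre minus wild-type, of each tested gene of the 6 pathway lists (points, spread vertically at random to avoid overlap), in orange where the 2 groups do not overlap, with the list's median as a vertical line. Medians run from −0.07 for ligand processing to 0.18 for ERK-induced targets, and no gene shown passed the adjusted threshold.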

How the data were processed

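Transcripts were measured on Affymetrix arrays from 50 ng of total RNA per sample. The authors deposited log2 values for each probe set, made with oligo and RMA per the submitters' processing notes, which give no version here. The log2 scale was read from the values. RMA makes the arrays' distributions alike, which hides any change common to most transcripts. Of 41345 probe sets, 23521 carry 1 gene symbol, 1814 several and 16010 none here. The 11668 genes with a mean of at least 2.84, the median probe set, were tested.

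Groups were tested with limma (version 3.58.1, R version 4.3.3) with lmFit and eBayes, two-sided, Benjamini-Hochberg over all genes tested and 95% intervals, a procedure tested on simulated data. The simulated differences were larger than that of any member, so they do not show whether differences as small as those of the members would be found. Members were chosen by name, without use of a measured value. Lists were chosen with earlier results of these data known, and were given no test. Named genes were taken by role, except Grb7, named as a neighbour of Erbb2, Adam19 and Egr2, all 3 chosen after their values were seen, and the cell markers. Of the 6 promoter windows that RefSeq's table holds for the 10 genes, those of Egfr and Erbb2 are printed. Alternatives varied the filter, probe set choice, normalization, variance model, replicate block, threshold and arrays.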

Additional observations from a re-analysis of the deposited data

How the results depend on the processing

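No member passed the adjusted threshold under any alternative tried, and Btc, too dim for the stricter filter, has no value there. The direction turned for Ereg with its other probe set (0.049) and for 5 of the 8 tested members when arrays were left out. Erbb4, in the fit with no filter, ran from −0.022 to 0.0083. Without 1 array in turn, the log2 difference ran from −0.010 to 0.028 for Btc, −0.43 to 0.23 for Egfr, −0.24 to 0.099 for Ereg, −0.44 to 0.046 for Nrg1 and −0.42 to 0.038 for Tgfa. It kept its sign for Erbb2 (0.087 to 0.45), Erbb3 (0.013 to 0.21) and Hbegf (−0.080 to −0.026). In those fits 1 group holds a lone array, whose spread is taken to be that of the pair. At an unadjusted p under 0.05 there were 249 higher and 255 lower genes (1 and 1 in the pathway lists). Leaving out arrays gave 0 to 13 lower genes, the most without wild-type replicate 2. The median of ERK-induced targets was 0.12 with the stricter filter, which tests fewer genes, 0.20 with median centring, and 0.16 to 0.20 without 1 array. That of ligand processing was 0.011 with the stricter filter and −0.068 to −0.013 without 1 array, where the adaptors ran from −0.080 to −0.0079 and the PI3K-AKT branch from 0.012 to 0.097. The cause of these shifts was not tested. With the replicate block, the difference was 0.27 for Erbb2 and −0.10 for Egfr, and 0 genes passed. Arrays of 1 number deviated from their group means with a correlation of −0.039 across genes. The labels state no shared litter or day for them, and with 2 arrays per group this correlation cannot show whether there was one. Dim signal limits Erbb4, Egf, Nrg2 and Nrg3.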
